A study of Mus musculus with 48 samples.

Results

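The genes described here are 10 markers of tubular injury and of failed repair, chosen by name: Havcr1, Lcn2, Vcam1, Sox9, Cd44, Vim, Clu, Spp1, Prom1 and Itgb6. Each was taken from the table of raw counts through the Ensembl ID that maps to its symbol, so the set is 10 of the 55487 genes in the table, and all 10 were expressed above the filter on low counts in every comparison. Their levels were read in 48 RNA-seq libraries of kidney slices kept alive in culture. The slices came from male mice of 2 inbred strains, C57BL/6J and DBA/2J. In each strain, 3 libraries were made for each of 8 conditions. The conditions were untreated control slices, slices with tunicamycin and slices with cyclosporin A, each at 6 h and at 24 h, and 2 oxygen conditions with a duration of 24 h in their titles. Normoxia is labelled as the model of ischemia, and normoxia-hyperoxia as the model of reperfusion. The doses, the ages of the mice, the oxygen given to the control slices and the moment at which hyperoxia began are not stated in the sources used here. Tunicamycin blocks N-linked glycosylation of proteins in the endoplasmic reticulum, and cyclosporin A is a calcineurin inhibitor whose use as an immunosuppressant is limited by its toxicity to the kidney.

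When the epithelium of a kidney tubule is injured, surviving cells lose transporters and other features of the mature segment, switch on genes of a less differentiated state, and normally return to the mature state as the tubule is repaired. Havcr1 and Lcn2 are the best known signals of acute injury and are measured in urine as KIM-1 and NGAL. Sox9 marks regenerating tubular cells, and cells that do not complete repair keep making Vcam1 and other adhesion and matrix-binding proteins. Several of these genes are also active in uninjured kidney: Vim in endothelial, mesenchymal and glomerular cells, Cd44 in leukocytes, Vcam1 in activated endothelium, and Spp1, Clu, Prom1 and Itgb6 in parts of the tubule.

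The promoters of 3 of the genes are printed here because these genes moved in different directions in culture and each holds 1 of the 6 motifs that were searched. Cd44 and Vim were higher, and Prom1 was lower, in 24 h than in 6 h control slices. Each sequence is the 150 bases before a RefSeq transcription start, 5′ to 3′ on the strand of the gene, from the RefSeq table on GRCm38.p6. The capitals mark the matched motif.
Cd44 (chr2:102901666-102901815, minus strand, ACGTG, matching the core of the hypoxia response element): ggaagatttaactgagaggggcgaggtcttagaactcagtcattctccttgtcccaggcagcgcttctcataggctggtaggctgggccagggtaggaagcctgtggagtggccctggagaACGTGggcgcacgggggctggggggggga
Vim (chr2:13574161-13574310, plus strand, TATAAA, matching the TATA box): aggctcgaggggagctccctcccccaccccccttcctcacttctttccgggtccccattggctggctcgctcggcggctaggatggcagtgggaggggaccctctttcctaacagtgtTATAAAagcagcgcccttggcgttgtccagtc
Prom1 (chr5:44101737-44101886, minus strand, TGACTCA, matching AP-1): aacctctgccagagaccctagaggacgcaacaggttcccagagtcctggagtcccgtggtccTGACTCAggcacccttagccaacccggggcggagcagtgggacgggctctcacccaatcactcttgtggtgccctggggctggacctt
The RefSeq table held promoters for 7 of the 10 genes, in 12 windows of 250 bases before a start. The motifs were searched on both strands as AP-1 TGANTCA, NF-kappaB (GGGA, any 2 bases, then TTCC), STAT TTCNNNGAA, HIF core ACGTG, TEAD GGAATG and TATA box TATAAA. Prom1 had its AP-1 match 88 bases before the start, and a second Prom1 window had another, TGAATCA, 189 bases before its start. The ACGTG core lay 29 bases before the Cd44 start, and 239 and 154 bases before the starts of 2 Havcr1 windows. TATAAA lay 32 bases before the Vim start and 211 bases before that of Spp1. No window held more than 1 match, and no window matched NF-kappaB, STAT or TEAD as spelled here. Among 32851 promoter windows of the same length, 6.75% held AP-1, 1.21% NF-kappaB, 7.02% STAT, 16.6% the HIF core, 12.6% TEAD and 12.4% the TATA box. These matches describe the letters of the windows and were not tied to the expression values.

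The libraries held 5619309 to 25137581 counts, with a median of 19607361. The smallest was DBA/2J normoxia-hyperoxia replicate 2, and the next smallest held 12384733. No member had fewer than 10 counts in any library. Markers of the proximal tubule were present in every group, with none of 9 at 0, as were those of the other nephron segments. Markers of the urothelium summed to at most 8.10 CPM (the count per 1000000 counts of the library), and 1 to 3 of its 5 markers were at 0 in all 3 libraries of most groups. Mitochondrial genes took 3.11% to 25.6% of the counts by library, and their share moved with the condition. In C57BL/6J they averaged 15.4% in 6 h controls, 6.82% in 24 h controls, 23.9% under normoxia and 14.1% under normoxia-hyperoxia. In DBA/2J the same averages were 8.16%, 3.52%, 12.3% and 13.7%. The part of this share in the results below was not tested. The normoxia libraries stood apart from all others for most of the genes described here. Lcn2, Vcam1, Sox9, Cd44, Vim, Clu and Spp1 had their lowest group mean there in each strain. Havcr1 had its lowest there only in DBA/2J, and Prom1 and Itgb6 in neither strain. The summed level of proximal tubule genes was highest under normoxia.

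Over all 16 groups the genes differed widely in how much they moved. Havcr1 had the widest span, from a group mean of 0.880 CPM in C57BL/6J slices with tunicamycin at 6 h to 597 CPM in DBA/2J 24 h controls, a ratio of 679. Lcn2 spanned 72.0-fold, Sox9 45.1-fold, Cd44 39.7-fold, Vcam1 10.5-fold, Clu 9.87-fold, Vim 8.50-fold and Spp1 7.56-fold between their lowest and highest group means. Prom1 and Itgb6 spanned 4.20-fold and 2.18-fold. Compared per kilobase of exon in C57BL/6J 24 h controls, Spp1 was the most abundant at 1891 CPM per kb, followed by Clu at 374, Havcr1 at 104 and Vim at 64.4. At 6 h Havcr1 was instead the least abundant of the 10 in C57BL/6J, at 0.560 CPM per kb. The plot of levels by library shows these spans.

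**Figure D1:**
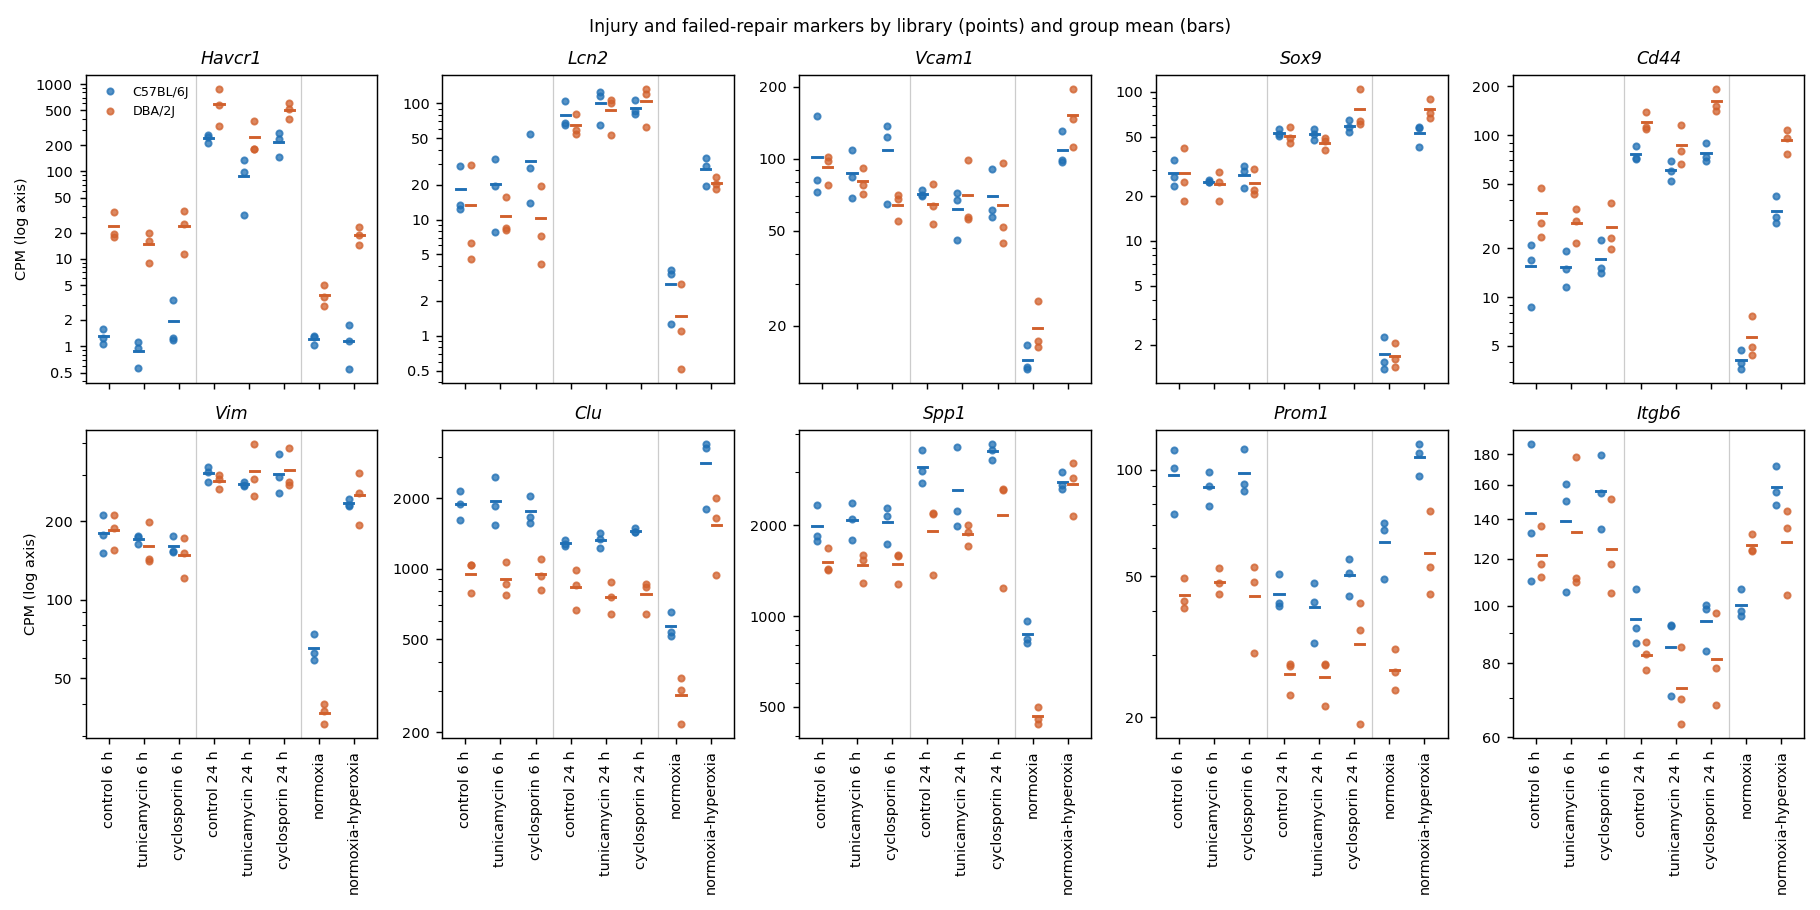
Level of each of the 10 genes in CPM (log axis) in each library (points) with the group mean (bars), for C57BL/6J (blue) and DBA/2J (orange) over the 8 conditions. Lcn2, Vcam1, Sox9, Cd44, Vim, Clu and Spp1 have their lowest group mean under normoxia, and Havcr1 is highest in the 24 h control, tunicamycin and cyclosporin groups.

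Time in culture, the oxygen conditions and the drugs were each compared by the mean effect over both strains, and a gene was called changed at an adjusted p under 0.05 (edgeR's quasi-likelihood test with Benjamini-Hochberg adjustment over all genes tested). Between 6 h and 24 h controls 5 genes rose and 4 fell, where 34.7% of all genes tested rose and 37.4% fell. Normoxia against 24 h controls gave 8 lower and 2 higher genes, where 39.7% of all genes were lower and 42.4% higher. Normoxia-hyperoxia against 24 h controls gave 6 higher and 3 lower genes, where 34.1% of all genes were higher and 34.1% lower. All 10 were higher in normoxia-hyperoxia than in normoxia slices, where 73.5% of all genes differed, 37% being higher and 36.5% lower. Within each strain 9 were called higher, all but Havcr1 in C57BL/6J and all but Itgb6 in DBA/2J. Against 6 h controls, 9 genes were lower under normoxia, where 32.9% of all genes were lower and 32.9% higher. In normoxia-hyperoxia slices 5 were higher than in 6 h controls, where 22.4% of all genes were higher and 22.5% lower. Large parts of the transcriptome therefore moved in each of these comparisons. The median log2 fold change of the 10 genes was 0.38 with time, -2.03 for normoxia and 0.40 for normoxia-hyperoxia against 24 h controls, and 2.25 between the oxygen conditions, beside medians of -0.02, 0.05, 0.00 and 0.02 over all genes. Against 6 h controls it was -1.80 for normoxia and 0.48 for normoxia-hyperoxia, beside 0.02 over all genes in both. These comparisons share the 24 h controls, the 6 h controls or the normoxia libraries with one another. The titles also place the oxygen conditions in another section of the study than the controls, so for these pairs the condition and the section cannot be told apart. Scaling by total counts alone moved the median of all genes to 0.19 with time, -0.22 for normoxia and -0.17 for normoxia-hyperoxia against 24 h controls, and 0.11 between the oxygen conditions. With that scaling the share of higher genes among the calls went from 48.1% to 60.4% with time, from 51.6% to 41.5% for normoxia and from 50.0% to 39% for normoxia-hyperoxia. It reversed no called change of the 10 genes. In bulk tissue, fewer cells of a type and less RNA per cell cannot be told apart.

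**Figure D2:**
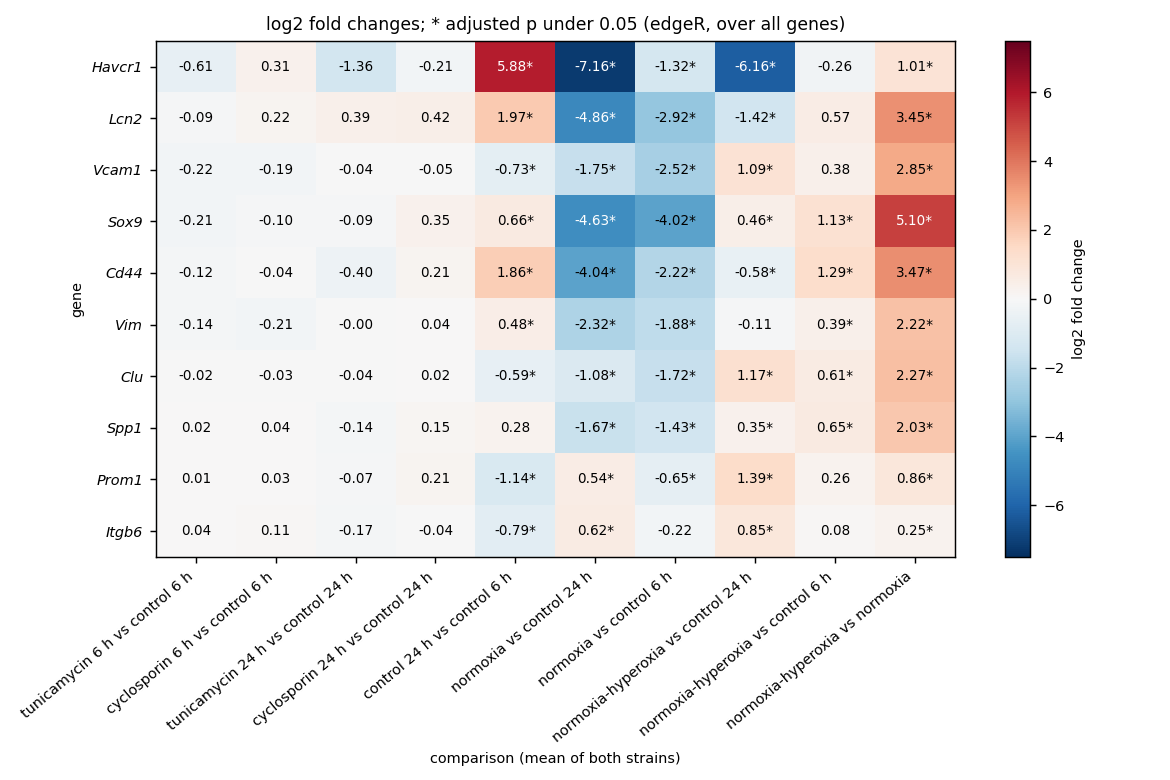
Log2 fold change of each gene (rows) in each of 10 comparisons (columns), averaged over both strains, with a star where the adjusted p was under 0.05 (edgeR). The 4 drug columns on the left hold no star, and Havcr1 runs from 5.88 with time in culture to -7.16 for normoxia against 24 h controls.

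Havcr1 (ENSMUSG00000040405, chr11:46735080-46779578, plus strand on GRCm38, as are all gene positions here) encodes KIM-1, a phosphatidylserine receptor with which injured proximal tubule cells take up dying neighbours. In C57BL/6J it was expressed at a low level at 6 h, with 1.06, 1.58 and 1.24 CPM in the 3 control libraries, and stood at 249.7, 209 and 262 CPM at 24 h. DBA/2J controls began higher, at 33.9, 19.1 and 17.7 CPM, and reached 887.5, 331 and 573 CPM. No 24 h control overlapped a 6 h control in either strain. The mean rise was 5.88 ± 0.30 (log2 fold change ± SE), or 59.0-fold (edgeR adjusted p = 9.97e-09), the largest of the 10 genes. C57BL/6J slices had a 153-fold rise, and for DBA/2J slices the rise was 22.8-fold. Under normoxia the libraries held 1.31, 1.04 and 1.28 CPM in C57BL/6J and 5.08, 2.87 and 3.66 CPM in DBA/2J. Normoxia-hyperoxia gave 1.76, 1.15 and 0.554 CPM in C57BL/6J, which overlapped normoxia, and 22.9, 14.2 and 18.8 CPM in DBA/2J, which did not. Compared with 24 h controls, Havcr1 was 143-fold lower under normoxia (log2 -7.16 ± 0.30, edgeR adjusted p = 2.69e-09) and 71.4-fold lower under normoxia-hyperoxia (log2 -6.16 ± 0.30, edgeR adjusted p = 1.12e-08). Both oxygen conditions, although labelled 24 h, thus lay far under the 24 h controls. Against 6 h controls, Havcr1 was lower under normoxia (log2 -1.32 ± 0.23, edgeR adjusted p = 1.41e-04), with a log2 difference of -0.17 ± 0.37 in C57BL/6J and -2.48 ± 0.25 in DBA/2J, and its difference under normoxia-hyperoxia was -0.26 ± 0.27 (edgeR adjusted p = 0.452).

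Lcn2 (ENSMUSG00000026822, chr2:32384633-32388252, minus strand) encodes NGAL, a secreted lipocalin that binds iron-carrying siderophores. Its 6 h controls were scattered, at 12.3, 29.03 and 13.2 CPM in C57BL/6J and 29.6, 4.55 and 6.23 CPM in DBA/2J. All 24 h controls lay above them, at 105, 64.6 and 67.5 CPM in C57BL/6J and 54.9, 81.6 and 59.0 CPM in DBA/2J. The rise was 3.93-fold (log2 1.97 ± 0.43, edgeR adjusted p = 0.00188). One library weighed on it: without DBA/2J 6 h control replicate 1, which held 29.6 CPM, the log2 rise was 2.64. Normoxia slices had the lowest Lcn2, with 1.27, 3.42 and 3.67 CPM in C57BL/6J and 2.78, 0.521 and 1.09 CPM in DBA/2J. In normoxia-hyperoxia slices it stood at 33.7, 28.9 and 19.5 CPM in C57BL/6J and 18.4, 20.1 and 23.4 CPM in DBA/2J, above every normoxia library and below every 24 h control. The log2 fold change against 24 h controls was -4.86 ± 0.33 for normoxia and -1.42 ± 0.18 for normoxia-hyperoxia (edgeR adjusted p = 1.96e-07 and 2.37e-05), and between the oxygen conditions it was 3.45 ± 0.33 (edgeR adjusted p = 2.12e-06). Against 6 h controls Lcn2 was lower under normoxia at -2.92 ± 0.61 (edgeR adjusted p = 0.00214), or -2.24 without the same DBA/2J library. Under normoxia-hyperoxia its difference from 6 h controls was 0.57 ± 0.43 (edgeR adjusted p = 0.311), and without that library it became 1.23 with an adjusted p of 0.00334.

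Sox9 (ENSMUSG00000000567, chr11:112782224-112787760, plus strand), the transcription factor of regenerating tubule cells, had the largest difference of the 10 genes between the oxygen conditions. Control slices held 23.4, 34.5 and 26.8 CPM in C57BL/6J and 41.9, 18.5 and 24.8 CPM in DBA/2J at 6 h. At 24 h they held 50.5, 56.4 and 52.1 CPM in C57BL/6J and 45.3, 49.1 and 57.9 CPM in DBA/2J, above every 6 h library of the same strain. Under normoxia the level was 2.27, 1.39 and 1.53 CPM in C57BL/6J and 2.05, 1.62 and 1.43 CPM in DBA/2J, the lowest of any condition. Normoxia-hyperoxia slices held 56.7, 42.7 and 58.1 CPM in C57BL/6J, which overlapped the 24 h controls, and 71.9, 67.1 and 89.1 CPM in DBA/2J, which lay above them. The log2 rise with time was 0.66 ± 0.17 (edgeR adjusted p = 0.0049). Normoxia was 24.8-fold below 24 h controls (log2 -4.63 ± 0.12, edgeR adjusted p = 1.32e-14) and 16.2-fold below 6 h controls (log2 -4.02 ± 0.23, edgeR adjusted p = 1.60e-08). Normoxia-hyperoxia was 34.3-fold above normoxia (log2 5.10 ± 0.14, edgeR adjusted p = 5.14e-13). Against 24 h controls normoxia-hyperoxia was higher by a log2 of 0.46 ± 0.09 (edgeR adjusted p = 4.98e-04), with 0.18 ± 0.13 in C57BL/6J and 0.74 ± 0.13 in DBA/2J. It was 2.19-fold above 6 h controls (log2 1.13 ± 0.18, edgeR adjusted p = 3.50e-04).

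Vcam1 (ENSMUSG00000027962, chr3:116109949-116129688, minus strand) encodes an adhesion molecule that binds integrin alpha4beta1 and marks proximal tubule cells that have not completed repair. It did not follow Havcr1 and Lcn2 with time. Its 6 h controls held 72.2, 151 and 81.4 CPM in C57BL/6J and 102, 77.9 and 97.4 CPM in DBA/2J, and its 24 h controls 73.8, 69.6 and 70.2 CPM in C57BL/6J and 63.1, 78.3 and 53.1 CPM in DBA/2J. The groups overlapped in both strains, and the fall was 1.66-fold (log2 -0.73 ± 0.18, edgeR adjusted p = 0.003). Normoxia slices held 13.2, 16.6 and 13.4 CPM in C57BL/6J and 17.2, 16.2 and 25.3 CPM in DBA/2J, below all other groups. Normoxia-hyperoxia slices held 98.5, 130.4 and 97.0 CPM in C57BL/6J and 112, 146 and 197 CPM in DBA/2J, above every 24 h control of the same strain. Normoxia-hyperoxia was 2.12-fold above 24 h controls (log2 1.09 ± 0.14, edgeR adjusted p = 2.54e-05) and 7.20-fold above normoxia (log2 2.85 ± 0.17, edgeR adjusted p = 1.88e-08), while normoxia was 3.35-fold below 24 h controls (edgeR adjusted p = 1.35e-08) and 5.72-fold below 6 h controls (edgeR adjusted p = 8.76e-07). The log2 difference of normoxia-hyperoxia from 6 h controls was 0.38 ± 0.20 (edgeR adjusted p = 0.15). It passed the threshold without C57BL/6J 6 h control replicate 2, which held 151 CPM, at 0.59 (adjusted p = 0.00675). The 6 endothelial markers, none at 0, had a higher summed level under normoxia-hyperoxia than under normoxia. It was 649 to 910.4 CPM under normoxia and 1071 to 1475 CPM under normoxia-hyperoxia in C57BL/6J, and 329.7 to 545 and 1019 to 1431 CPM in DBA/2J. Among the 6 markers 5 were higher under normoxia-hyperoxia than under normoxia, as were 37% of all genes. In 24 h controls the sum was 1054 to 1377 CPM in C57BL/6J, overlapping normoxia-hyperoxia, and 601 to 999 CPM in DBA/2J, below it without overlap. Their part in the Vcam1 result was not tested.

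Cd44 (ENSMUSG00000005087, chr2:102811141-102901665, minus strand), a receptor for hyaluronan and osteopontin that appears on injured tubules, rose with time. Its mean was higher in DBA/2J than in C57BL/6J in each of 4 conditions, a difference that passed the threshold in 2. At 6 h the controls held 8.67, 20.9 and 16.9 CPM in C57BL/6J and 47.4, 23.5 and 28.9 CPM in DBA/2J. At 24 h they held 85.7, 70.8 and 72.3 CPM in C57BL/6J and 139.9, 108 and 112 CPM in DBA/2J, with no overlap with 6 h. The rise was 3.63-fold (log2 1.86 ± 0.21, edgeR adjusted p = 9.10e-06). Normoxia slices had 3.94, 4.70 and 3.62 CPM in C57BL/6J and 4.91, 4.38 and 7.70 CPM in DBA/2J. Normoxia-hyperoxia slices had 28.8, 31.4 and 42.2 CPM in C57BL/6J and 96.7, 76.5 and 108 CPM in DBA/2J. The oxygen conditions did not overlap each other in either strain, and both lay below the 24 h controls of their strain. Relative to these controls the log2 fold change was -4.04 ± 0.13 for normoxia and -0.58 ± 0.11 for normoxia-hyperoxia (edgeR adjusted p = 4.71e-12 and 4.70e-04). The second of these was -0.97 ± 0.16 in C57BL/6J and -0.20 ± 0.16 in DBA/2J. Normoxia-hyperoxia was 11.1-fold above normoxia (edgeR adjusted p = 3.38e-10) and 2.45-fold above 6 h controls (edgeR adjusted p = 6.39e-04), and normoxia was 4.66-fold below 6 h controls (edgeR adjusted p = 1.37e-05). The 9 markers of immune cells, which also carry Cd44, were all detected in every group. Their sum in DBA/2J was 135 to 171 CPM in 6 h controls, 208 to 245 CPM in 24 h controls, 112 to 132 CPM under normoxia and 257 to 316 CPM under normoxia-hyperoxia. In C57BL/6J the same sums were 101 to 126, 128 to 161, 149.8 to 171 and 132 to 167 CPM. With time in culture 2 of the 8 immune markers tested rose and 5 fell, beside 34.7% and 37.4% of all genes. Their part in the Cd44 result was not tested.

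Spp1 (ENSMUSG00000029304, chr5:104435118-104441050, plus strand) encodes osteopontin, a secreted ligand of Cd44 and of alphav integrins and the most abundant of the 10 transcripts. Controls held 1769, 2335 and 1843 CPM at 6 h and 3556, 2764 and 3028 CPM at 24 h in C57BL/6J. In DBA/2J they held 1678, 1427 and 1419 CPM at 6 h and 1366, 2204 and 2178 CPM at 24 h. The times did not overlap in C57BL/6J and overlapped in DBA/2J. The mean log2 difference was 0.28 ± 0.12 (edgeR adjusted p = 0.0509), just outside the threshold. It passed without any 1 of 4 libraries: C57BL/6J 6 h control replicate 2, DBA/2J 6 h control replicate 1, C57BL/6J 24 h control replicate 2 or DBA/2J 24 h control replicate 1, with adjusted p from 0.00483 to 0.0439. It also passed in DESeq2, with an adjusted p of 0.0388, and with total-count scaling, at 0.50. In edgeR it passed as well with RLE factors for scaling (adjusted p = 0.0454) and without the filter on low counts (adjusted p = 0.00195). It was not called in a single fit of all 48 libraries or with the replicate number as a block. Normoxia slices held 816, 961 and 837 CPM in C57BL/6J and 501, 456 and 439.7 CPM in DBA/2J, and normoxia-hyperoxia slices 3004, 2635 and 2729 CPM in C57BL/6J and 2145, 2871 and 3222 CPM in DBA/2J. No normoxia library overlapped another condition of its strain. Normoxia was 3.17-fold below 24 h controls, 2.69-fold below 6 h controls and 4.08-fold below normoxia-hyperoxia (edgeR adjusted p = 3.28e-09, 9.64e-09 and 7.73e-11). Normoxia-hyperoxia was 1.57-fold above 6 h controls (edgeR adjusted p = 3.32e-04). Its log2 difference from 24 h controls was 0.35 ± 0.13 (edgeR adjusted p = 0.0262), with 0.03 ± 0.18 in C57BL/6J and 0.66 ± 0.18 in DBA/2J. That call was lost with total-count scaling, at 0.18. It was also lost without any 1 of 6 libraries, with adjusted p from 0.0505 to 0.0751: C57BL/6J 24 h control replicates 2 and 3, DBA/2J 24 h control replicate 1, C57BL/6J normoxia-hyperoxia replicate 1 and DBA/2J normoxia-hyperoxia replicates 2 and 3. The predicted gene Gm42793 overlaps Spp1 on the same strand. It held at most 1904 counts in a library, where Spp1 held at least 8751.

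Itgb6 (ENSMUSG00000026971, chr2:60598292-60722643, minus strand) encodes the beta6 integrin chain, which pairs with alphav on epithelial cells and activates latent TGF-beta. It fell with time and varied least of the 10 genes. Controls held 110.0, 188 and 133 CPM in C57BL/6J and 112, 136 and 118 CPM in DBA/2J at 6 h, and 107, 91.6 and 86.6 CPM in C57BL/6J and 77.8, 87.0 and 83.0 CPM in DBA/2J at 24 h. No 24 h control reached the 6 h range of its strain, and the fall was 1.73-fold (log2 -0.79 ± 0.12, edgeR adjusted p = 4.01e-05). Under normoxia the level was 96.0, 107 and 97.8 CPM in C57BL/6J, which overlapped the 24 h controls, and 124, 132 and 124 CPM in DBA/2J, which did not. Normoxia-hyperoxia gave 172, 148 and 156 CPM in C57BL/6J, above normoxia, and 104, 135 and 145 CPM in DBA/2J, overlapping it. Compared with 24 h controls, the log2 fold change was 0.62 ± 0.06 for normoxia and 0.85 ± 0.08 for normoxia-hyperoxia (edgeR adjusted p = 7.73e-08 and 2.26e-07). Between the oxygen conditions it was 0.25 ± 0.07 (edgeR adjusted p = 0.0059). This last call was lost in a single fit of all 48 libraries, with an adjusted p of 0.062. Neither oxygen condition passed the threshold against 6 h controls, at -0.22 ± 0.11 and 0.08 ± 0.13 (edgeR adjusted p = 0.105 and 0.646). Normoxia did pass against 6 h controls without C57BL/6J 6 h control replicate 1, at -0.30 (adjusted p = 0.00738).

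Vim (ENSMUSG00000026728, chr2:13573927-13582826, plus strand) encodes vimentin, an intermediate filament of mesenchymal cells that dedifferentiated tubule cells also make. It rose with time from 151, 211 and 177 to 284, 323 and 309 CPM in C57BL/6J and from 212, 155 and 189 to 289.9, 301 and 265 CPM in DBA/2J, without overlap in either strain. The rise was 1.39-fold (log2 0.48 ± 0.09, edgeR adjusted p = 3.38e-04). Normoxia slices held 74.3, 58.6 and 62.7 CPM in C57BL/6J and 33.5, 39.8 and 37.5 CPM in DBA/2J, far under every other group. Normoxia-hyperoxia slices held 229, 231 and 243 CPM in C57BL/6J and 194, 257 and 305 CPM in DBA/2J. Normoxia was 4.98-fold below 24 h controls and 3.68-fold below 6 h controls, and normoxia-hyperoxia was 4.65-fold above normoxia and 1.31-fold above 6 h controls (edgeR adjusted p = 7.79e-14, 1.51e-09, 4.03e-11 and 0.0161). The log2 difference of normoxia-hyperoxia from 24 h controls was -0.11 ± 0.08 (edgeR adjusted p = 0.249). It passed with total-count scaling, at -0.28, and without DBA/2J normoxia-hyperoxia replicate 3, at -0.20 (adjusted p = 0.0191). Of the 7 markers of fibroblasts, pericytes and smooth muscle, none at 0, none rose with time and 5 fell, beside 34.7% and 37.4% of all genes. Their sum was 230.1 to 338 CPM at 6 h and 150.4 to 202 CPM at 24 h in C57BL/6J, and 198 to 449 CPM at 6 h and 141 to 158 CPM at 24 h in DBA/2J. Under normoxia it was 155 to 199 CPM in C57BL/6J and 57.9 to 90.7 CPM in DBA/2J. In normoxia-hyperoxia slices it was 187 to 242 and 137 to 164 CPM, and 4 of the 7 were higher than under normoxia and none lower, beside 37% and 36.5% of all genes. The 4 podocyte markers, none at 0, all fell with time, beside 37.4% of all genes. All 4 were higher under normoxia-hyperoxia than under normoxia, beside 37% of all genes. They summed to 1843 to 1925 CPM at 6 h, 1119.6 to 1353 CPM at 24 h, 777 to 1012 CPM under normoxia and 1610.5 to 1965 CPM under normoxia-hyperoxia in C57BL/6J, and to 1361 to 1548, 620.4 to 923, 435 to 573 and 1064 to 1913 CPM in DBA/2J. The endothelial sums, given with Vcam1, were also higher under normoxia-hyperoxia than under normoxia. The part of these cells in the Vim results, with time or between the oxygen conditions, was not tested.

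Clu (ENSMUSG00000022037, chr14:65968483-65981547, plus strand) encodes clusterin, a secreted chaperone released by injured tubules. Unlike Havcr1 and Lcn2 it did not rise in control slices. In C57BL/6J it fell from 2157, 1889.7 and 1622 CPM at 6 h to 1246, 1278 and 1328 CPM at 24 h, and DBA/2J held 790.1, 1034 and 1036 CPM at 6 h and 666, 849 and 992 CPM at 24 h, which overlapped. The mean fall was 1.503-fold (log2 -0.59 ± 0.11, edgeR adjusted p = 1.69e-04), with -0.35 ± 0.15 in DBA/2J alone (edgeR adjusted p = 0.0584). Normoxia slices held 654, 538 and 517 CPM in C57BL/6J and 217, 303 and 342 CPM in DBA/2J. Normoxia-hyperoxia slices held 3424, 1798 and 3287 CPM in C57BL/6J and 941, 1646 and 2011 CPM in DBA/2J, the highest group mean of each strain and the one with the widest SD. Normoxia-hyperoxia was 4.84-fold above normoxia (log2 2.27 ± 0.21, edgeR adjusted p = 1.13e-06) and 2.26-fold above 24 h controls (log2 1.17 ± 0.20, edgeR adjusted p = 2.32e-04), while normoxia was 2.12-fold below 24 h and 3.28-fold below 6 h controls (edgeR adjusted p = 6.58e-07 and 1.68e-08). Normoxia-hyperoxia was 1.52-fold above 6 h controls (edgeR adjusted p = 0.0216). That call was lost, with adjusted p from 0.0507 to 0.0584, without any 1 of 5 libraries: C57BL/6J 6 h control replicate 3, DBA/2J 6 h control replicate 1, C57BL/6J normoxia-hyperoxia replicates 1 and 3 and DBA/2J normoxia-hyperoxia replicate 3.

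Prom1 (ENSMUSG00000029086, chr5:43993620-44102032, minus strand) encodes prominin-1 (CD133), a membrane protein of immature and regenerating epithelial cells. It moved with time opposite to Havcr1: C57BL/6J controls held 74.9, 114 and 101 CPM at 6 h and 50.6, 41.2 and 42.1 CPM at 24 h, and DBA/2J controls 42.7, 40.6 and 49.5 CPM at 6 h and 23.2, 27.9 and 28.3 CPM at 24 h. All 24 h controls lay below all 6 h controls of their strain, and the fall was 2.21-fold (log2 -1.14 ± 0.11, edgeR adjusted p = 2.64e-07). Normoxia slices held 49.1, 67.7 and 70.9 CPM in C57BL/6J and 26.7, 23.9 and 31.1 CPM in DBA/2J, and normoxia-hyperoxia slices 112, 118 and 96.1 CPM in C57BL/6J and 44.5, 53.2 and 76.6 CPM in DBA/2J. Prom1 was higher than in 24 h controls in both oxygen conditions, by a log2 of 0.54 ± 0.10 under normoxia and 1.39 ± 0.13 under normoxia-hyperoxia (edgeR adjusted p = 1.77e-04 and 6.17e-07). Normoxia overlapped the 24 h controls in both strains, and normoxia-hyperoxia did not. Normoxia-hyperoxia was 1.82-fold above normoxia (edgeR adjusted p = 1.23e-04). Under normoxia Prom1 lay below the 6 h controls, at -0.65 ± 0.12 (edgeR adjusted p = 3.93e-04), and its difference under normoxia-hyperoxia was 0.26 ± 0.14 (edgeR adjusted p = 0.151). Markers of the collecting duct and of the loop of Henle and distal tubule were at 0 in no group. The 5 collecting duct markers summed to 412 to 459 CPM at 6 h, 152 to 193 CPM at 24 h, 548 to 643 CPM under normoxia and 747 to 892 CPM under normoxia-hyperoxia in C57BL/6J. In DBA/2J the sums were 386 to 412, 121 to 188, 272 to 335 and 616 to 770.0 CPM. All 5 fell with time, beside 37.4% of all genes. All 5 were higher in each oxygen condition than in 24 h controls, beside 42.4% of all genes under normoxia and 34.1% under normoxia-hyperoxia. The 4 loop and distal markers summed to 12259 to 13614 CPM at 6 h, 2801 to 5423 CPM at 24 h, 11994 to 16855 CPM under normoxia and 12628 to 20476 CPM under normoxia-hyperoxia in C57BL/6J, and to 7362 to 9673, 2313 to 4880.4, 4230.4 to 5462 and 12518 to 14877 CPM in DBA/2J, where normoxia overlapped the 24 h controls. Their part in the Prom1, Clu and Itgb6 results was not tested.

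Neither drug produced a called change in any of the 10 genes over both strains in the edgeR fit of each comparison. Tunicamycin at 6 h and cyclosporin A at 6 h and 24 h gave 0 called members, where 0.00% of all genes were called in each comparison (edgeR), and DESeq2 also called 0 members. At an unadjusted p under 0.05 the members numbered 0, 0 and 1, the last being Sox9 in cyclosporin A at 24 h (log2 0.35 ± 0.13). Tunicamycin at 24 h likewise gave 0 called members with edgeR, where 1.38% of all genes were called, and 2 at an unadjusted p under 0.05, Havcr1 and Cd44. Havcr1 held 98.1, 134 and 31.5 CPM in C57BL/6J slices with tunicamycin at 24 h, all below the 24 h controls. In DBA/2J it held 381, 179 and 180.0 CPM, which overlapped the controls. Its mean log2 difference was -1.36 ± 0.38 (edgeR adjusted p = 0.14). DESeq2 called it, with an adjusted p of 0.0111, and so did a single edgeR fit of all 48 libraries, with 0.00602. Cd44 held 60.2, 52.4 and 69.0 CPM in C57BL/6J and 115, 79.4 and 66.7 CPM in DBA/2J with tunicamycin at 24 h, for a log2 difference of -0.40 ± 0.13 (edgeR adjusted p = 0.19). Without DBA/2J tunicamycin 24 h replicate 1, which held 115 CPM, the Cd44 difference was -0.51 with an adjusted p of 0.0372. The other log2 differences ran from -0.61 (Havcr1) to 0.04 (Itgb6) with tunicamycin at 6 h, and from -0.17 (Itgb6) to 0.39 (Lcn2) with tunicamycin at 24 h. With cyclosporin A they ran from -0.21 (Vim) to 0.31 (Havcr1) at 6 h and from -0.21 (Havcr1) to 0.42 (Lcn2) at 24 h. Missing the threshold does not show that the drugs left these genes unchanged.

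The strains differed in the level of 5 of the 10 genes in 6 h controls, where 26.2% of all genes differed, and of 4 in 24 h controls, where 22.2% did. They differed in 6 under normoxia, where 46.8% of all genes did, and in 6 under normoxia-hyperoxia, where 25.7% did. Havcr1 was higher in DBA/2J in all 4 of these conditions. The difference was 16.4-fold in 6 h controls, 2.44-fold in 24 h controls, 3.37-fold under normoxia and 15.3-fold under normoxia-hyperoxia (edgeR adjusted p = 9.51e-05, 0.0138, 6.96e-04 and 1.00e-06), and the strains' libraries did not overlap in any of the 4. The difference in 24 h controls was lost without C57BL/6J 24 h control replicate 2, at an adjusted p of 0.0562. Prom1 and Clu were lower in DBA/2J in the same 4 conditions. Prom1 was 2.42-fold, 1.73-fold, 2.18-fold and 1.99-fold lower (edgeR adjusted p = 3.13e-05, 0.00189, 7.44e-04 and 0.00321). For Clu the values were 2.19-fold, 1.57-fold, 1.89-fold and 1.97-fold (edgeR adjusted p = 9.68e-05, 0.00635, 0.0219 and 0.0279). The Clu difference under normoxia was lost without C57BL/6J replicate 1, DBA/2J replicate 1 or DBA/2J replicate 2 of that condition (adjusted p from 0.0514 to 0.0855). Under normoxia-hyperoxia it was lost without C57BL/6J replicate 1 or 3 or DBA/2J replicate 1 or 2 (adjusted p from 0.0575 to 0.101).

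Spp1 was called lower in DBA/2J except under normoxia-hyperoxia, at log2 -0.54 ± 0.17 in 6 h controls, -0.73 ± 0.17 in 24 h controls, -0.83 ± 0.14 under normoxia and -0.12 ± 0.14, not called, under normoxia-hyperoxia. Its 6 h call was lost with total-count scaling, at -0.39, and without C57BL/6J replicate 2 or 3 or DBA/2J replicate 2 or 3 of the 6 h controls (adjusted p from 0.0587 to 0.156). Cd44 was higher in DBA/2J by a log2 of 0.96 ± 0.31 in 6 h controls (edgeR adjusted p = 0.0402) and 1.38 ± 0.19 under normoxia-hyperoxia (edgeR adjusted p = 1.82e-04). In 24 h controls, where the strains did not overlap, it was 0.62 ± 0.29, and under normoxia 0.55 ± 0.24, neither called. The 6 h call was lost without any 1 of 7 libraries (adjusted p from 0.0507 to 0.167), namely C57BL/6J 6 h control replicates 1 and 3, DBA/2J 6 h control replicates 1 and 3, C57BL/6J 24 h control replicates 2 and 3 and DBA/2J 24 h control replicate 3. Vim was 1.68-fold lower in DBA/2J under normoxia (edgeR adjusted p = 5.02e-04). Sox9 was 1.37-fold higher under normoxia-hyperoxia (edgeR adjusted p = 0.037), a call lost without DBA/2J normoxia replicate 2, C57BL/6J normoxia-hyperoxia replicate 2 or DBA/2J normoxia-hyperoxia replicate 1 or 3 (adjusted p from 0.0562 to 0.133). Itgb6 was higher in DBA/2J under normoxia, at 0.41 ± 0.10, and lower under normoxia-hyperoxia, at -0.41 ± 0.10 (edgeR adjusted p = 0.0041 and 0.00876). The single fit of all 48 libraries did not call these 2 Itgb6 differences (adjusted p = 0.168 and 0.132) or the Sox9 one (adjusted p = 0.114). Lcn2 and Vcam1 differed between the strains in none of the 4 conditions at the threshold. Reads of both strains were aligned to GRCm38, the C57BL/6J genome, and the part of mapping in these differences was not tested.

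**Figure D3:**
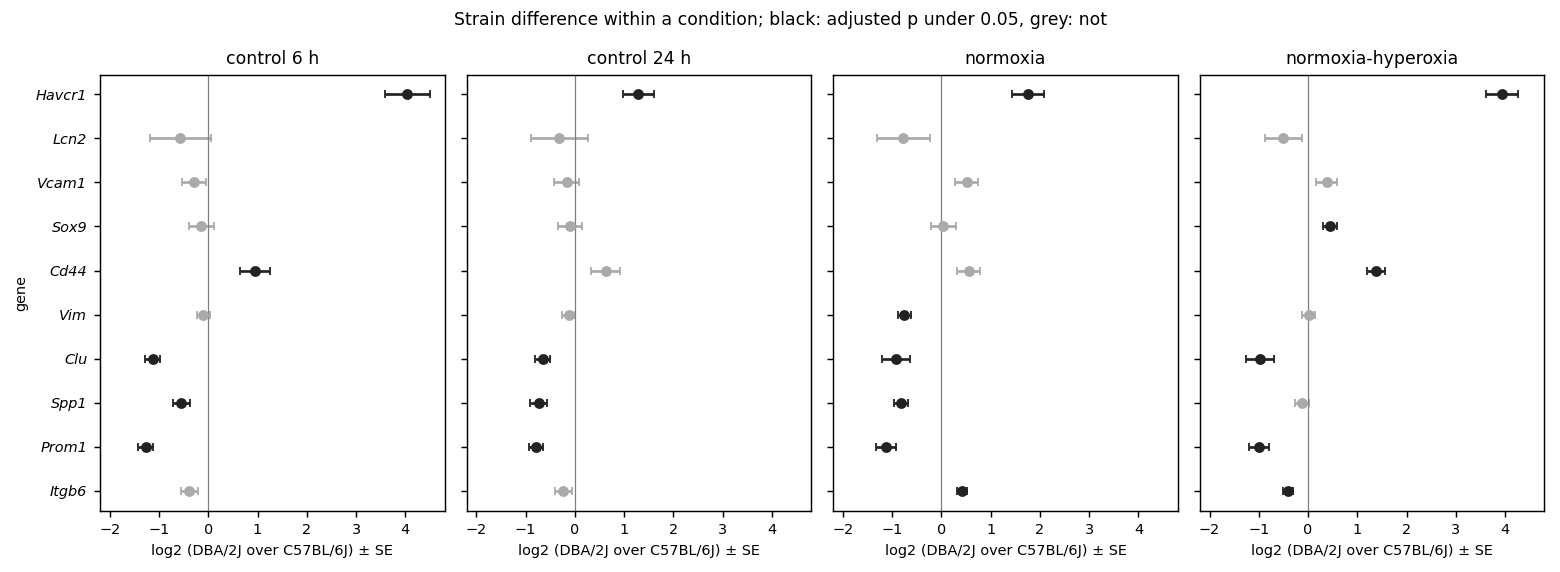
Log2 ratio of DBA/2J to C57BL/6J ± SE for each gene in 4 conditions, from edgeR; black points passed an adjusted p of 0.05 and grey ones did not. Havcr1 lies right of 0 in every panel, at 4.04, 1.29, 1.75 and 3.94, and Prom1 and Clu lie left of 0.

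The effect of a condition was also compared between the strains, as the DBA/2J effect minus the C57BL/6J effect. No gene of the 10 passed for time in culture, where 0.690% of all genes did (edgeR), for normoxia-hyperoxia against 24 h controls, where 1.43% did, or against 6 h controls, where 0.232% did. At an unadjusted p under 0.05 the members numbered 3, 4 and 0, and DESeq2 called 1, 2 and 0. Havcr1 lay just outside the threshold in the first comparison, at -2.75 ± 0.57 (edgeR adjusted p = 0.0613), and in the second, at 2.696 ± 0.59 (edgeR adjusted p = 0.0533). For normoxia against 24 h controls 2 genes passed, Vim with the lower and Itgb6 with the higher effect in DBA/2J, where 6.88% of all genes had a lower and 10.1% a higher effect. Vim fell further in DBA/2J (-2.62 ± 0.10) than in C57BL/6J (-2.01 ± 0.10), and Itgb6 had log2 differences of 0.95 ± 0.08 in DBA/2J and 0.29 ± 0.08 in C57BL/6J. Between the oxygen conditions 4 genes passed, where 18.2% of all genes did. The log2 difference of normoxia-hyperoxia from normoxia was 2.10 ± 0.28 in DBA/2J and -0.08 ± 0.38 in C57BL/6J for Havcr1. It was 2.60 ± 0.14 and 1.84 ± 0.14 for Vim, and 2.38 ± 0.15 and 1.68 ± 0.14 for Spp1. For Itgb6 the values had opposite signs, 0.66 ± 0.10 in C57BL/6J and -0.16 ± 0.10 in DBA/2J, the second not called. For normoxia against 6 h controls 1 gene passed, Havcr1, where 3.66% of all genes did. The single fit of all 48 libraries called only the 2 Vim differences among these 7. No member passed for the drugs, where 0.00% of all genes did in each of the 4 comparisons, and 0 members had an unadjusted p under 0.05 or a DESeq2 call there.

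The markers were read beside 3 lists of related genes. Like the markers, these lists were chosen with earlier results of these data known, so their counts describe the lists and are not independent support. Of 30 other genes of injury and failed repair, 19 rose and 7 fell between 6 h and 24 h controls, with a median log2 fold change of 0.86, where 34.7% of all genes rose and 37.4% fell. S100a6, a calcium-binding protein, went from 20 ± 1.8 to 260.5 ± 37.7 CPM (mean ± SD, n = 3) in C57BL/6J. Plaur, the urokinase receptor, went from 79.3 ± 32.9 to 402 ± 22.6 CPM, while Atf3, a stress-induced transcription factor, fell from 1394 ± 196 to 387 ± 73.5 CPM. Under normoxia 26 of the 30 were lower and 2 higher than in 24 h controls, with a median of -4.34, beside 39.7% of all genes lower and 42.4% higher. The keratins of injured tubules Krt20 and Krt19 were lower at log2 -8.51 and -8.25, and Il34 and Sema5a were the 2 that were higher, at 0.66 and 0.38. Krt20 averaged 0.0792 and Krt19 0.475 CPM under normoxia in C57BL/6J, and 0.212 and 0.463 CPM in DBA/2J. The size of these 2 falls therefore rests on low counts. Under normoxia 28 of the 30 were lower than in 6 h controls and none higher, with a median of -2.78, beside 32.9% of all genes in each direction. Normoxia-hyperoxia had 28 of the 30 above normoxia and 2 below, with a median of 3.07, where 37% of all genes were above and 36.5% below. Atf3 stood at 2.42 ± 0.35 CPM under normoxia and 1471 ± 366 CPM under normoxia-hyperoxia in C57BL/6J. Against 24 h controls normoxia-hyperoxia had 6 higher and 21 lower, with a median of -0.72, where 34.1% of all genes were higher and 34.1% lower, so that the share of higher genes was below that of all genes. Against 6 h controls it had 12 higher and 5 lower, with a median of 0.25, beside 22.4% and 22.5% of all genes. The median over all genes tested was between -0.02 and 0.05 in these comparisons. In normoxia-hyperoxia slices Icam1, like Vcam1 an adhesion molecule for leukocytes, was higher than in 24 h controls at log2 1.62, and S100a6 was lower at -3.35. With the drugs the median of the list was -0.07 and 0.01 for tunicamycin and -0.05 and 0.07 for cyclosporin A, at 6 h and 24 h.

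The 18 genes of proximal tubule identity, which encode transporters, metabolic enzymes and transcription factors of the mature segment, moved opposite to most injury genes with time, under normoxia and between the oxygen conditions. All 18 fell with time, with a median of -2.65, all 18 were higher under normoxia than in 24 h controls, with a median of 3.64, and all 18 were lower under normoxia-hyperoxia than under normoxia, with a median of -4.51. Over all genes these shares were 37.4%, 42.4% and 36.5%. Slc27a2, a fatty acid transporter, held 2263 ± 36.2 CPM under normoxia and 40.3 ± 10.03 CPM under normoxia-hyperoxia in C57BL/6J. Against 6 h controls, 15 of the 18 were higher under normoxia, with a median of 0.94, and all 18 were lower under normoxia-hyperoxia, with a median of -3.44, beside 32.9% of all genes higher and 22.5% lower. Normoxia-hyperoxia had 11 below 24 h controls, as it had most injury genes, and 2 above, which were Gatm, of creatine synthesis, at 1.39 and Hnf4a, a transcription factor of the segment, at 0.58, where 34.1% of all genes were lower and 34.1% higher. Their summed level in C57BL/6J was 10074 to 18771 CPM in 6 h controls, 1741 to 2429 CPM in 24 h controls, 32017 to 40030.0 CPM under normoxia and 1119.6 to 1501 CPM under normoxia-hyperoxia. In DBA/2J the sums were 23309 to 28950.4, 4410.1 to 8169.7, 52500.3 to 55567 and 2612 to 3879 CPM. The part of the amount of proximal tubule RNA in the marker results was not tested.

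**Figure D4:**
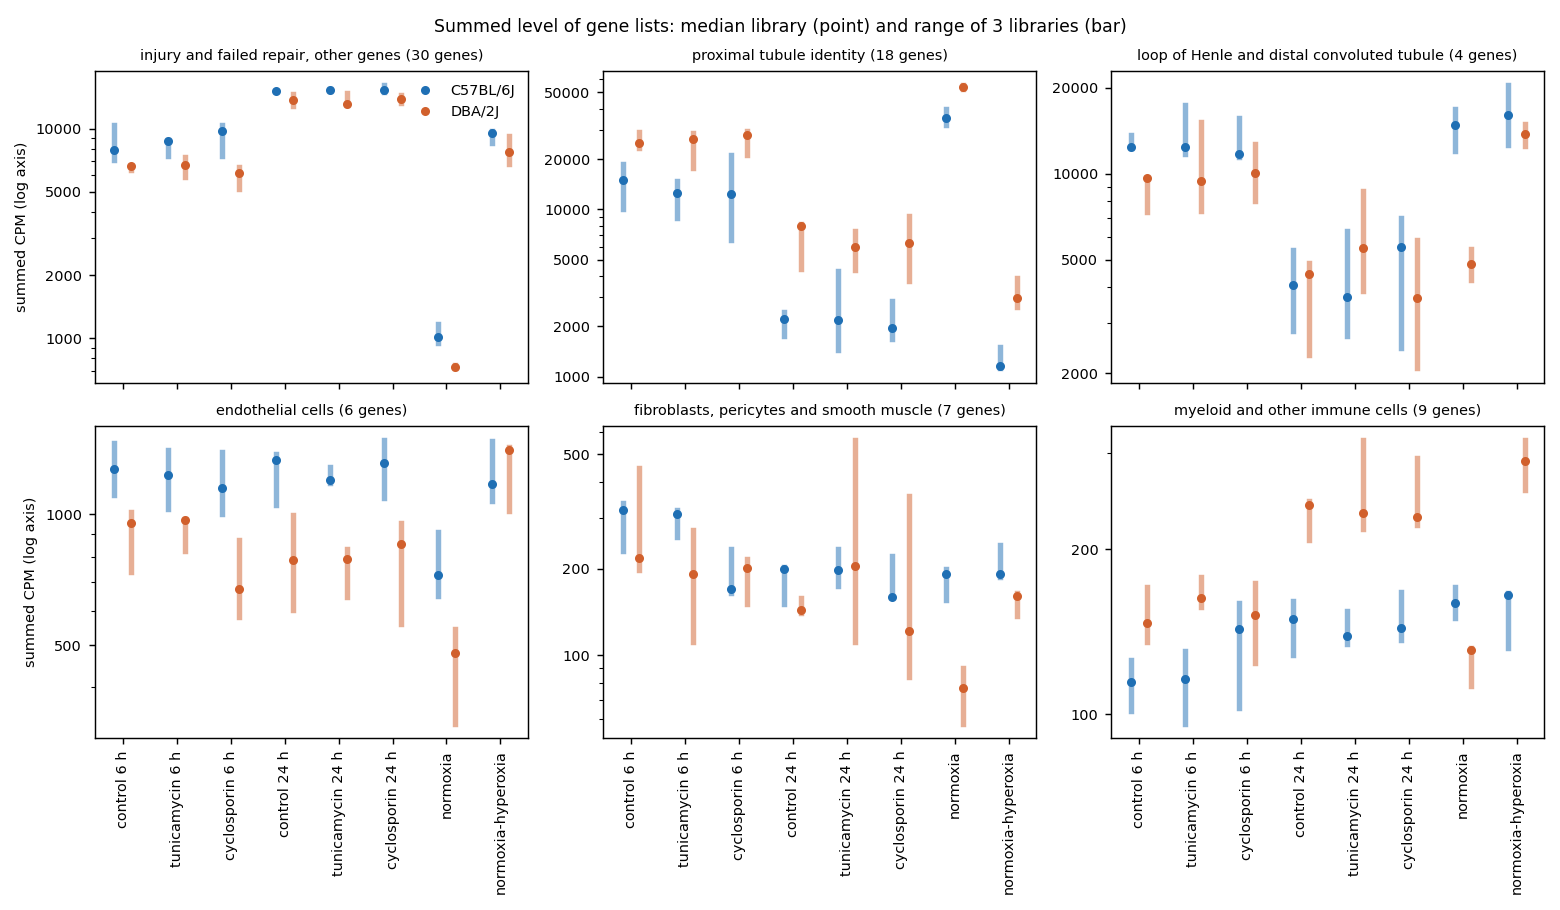
Summed CPM (log axis) of 6 gene lists by condition, with the median library (point) and the range of 3 libraries (bar) in C57BL/6J (blue) and DBA/2J (orange). The other injury genes are lowest and the proximal tubule genes highest under normoxia, where the 30 injury genes summed to 952 to 1169.8 CPM in C57BL/6J against 15065 to 15198 CPM in 24 h controls.

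Binding partners and receptors of the 10 proteins formed the third list, with 13 of its 14 genes tested in each comparison other than cyclosporin A at 24 h, where all 14 were. With time 3 rose and 8 fell, with a median of -0.56, so that a smaller share rose than the 34.7% of all genes, beside 37.4% that fell. Msn, which encodes the Cd44-binding cytoskeletal linker moesin, rose by a log2 of 1.36, and Itgb3, an integrin chain of osteopontin receptors, by 1.37, while Slc22a17, an Lcn2 receptor, fell by 1.61 and Ltbp1, which holds latent TGF-beta for its activation by integrins, by 1.69. Under normoxia 8 were lower and 4 higher than in 24 h controls, with a median of -0.99, beside 39.7% and 42.4% of all genes. Itgb3 was lower at -3.77 and Msn at -2.16, and Slc22a17 was higher at 1.94 and Itga4, the Vcam1 receptor chain, at 1.47. Normoxia-hyperoxia had 10 above normoxia and 2 below, with a median of 1.06, beside 37% and 36.5% of all genes. Itgav, the partner of the Itgb6 chain, stood at 123 ± 11.9 CPM under normoxia and 662 ± 81.1 CPM under normoxia-hyperoxia in C57BL/6J, and Tgfb2, a TGF-beta ligand, at 5.46 ± 0.51 and 27.5 ± 9.7 CPM. Against 24 h controls normoxia-hyperoxia had 7 higher and 3 lower, beside 34.1% of all genes in each direction, and normoxia had 2 higher and 10 lower than 6 h controls, beside 32.9% in each direction. The 3 higher and 2 lower genes in normoxia-hyperoxia against 6 h controls were near or below the 22.4% and 22.5% of all genes. With the drugs the median was -0.03 and 0.05 for tunicamycin and -0.12 and 0.03 for cyclosporin A, at 6 h and 24 h.

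Across the 16 group means the 10 genes fell along different lines, given here as correlations of mean log2 CPM over 16 groups that share their strains, conditions and scaling. Sox9 and Vim ran closest together (Pearson r = 0.96), followed by Lcn2 and Vim (0.92). Prom1 and Itgb6 went with each other (0.83) and against Havcr1 (-0.82 and -0.89). Havcr1 and Vcam1 were nearly unrelated (-0.05). Among 12244 other genes, those whose pattern was most like each member were Ppp2r2c for Havcr1 (0.972), Max for Lcn2 (0.989), Bcor for Vcam1 (0.988), Dusp10 for Sox9 (0.989), Ptpn11 for Cd44 (0.984), Ier3 for Vim (0.991), Epb41l1 for Clu (0.979), Ecscr for Spp1 (0.978), Rassf6 for Prom1 (0.979) and Hs6st1 for Itgb6 (0.982). Vcam1 was also followed by Socs3 and Jun (both 0.978), and Sox9 by Relb (0.988).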

How the data were processed

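RNA-seq was made from cultured kidney slices in 16 groups of 3 libraries. Per the labels' protocols the RNA was total RNA made into stranded mRNA libraries. The authors deposited raw whole-number counts for 55487 Ensembl genes. The submitters' processing notes name bcl2fastq 2.20.0, FastQC 0.11.8, STAR 2.7.9a, featureCounts 1.5.1 and GRCm38; the strand setting, annotation release and handling of shared reads are not given in the sources used here. Symbols matched 55141 IDs, and positions come from GENCODE on GRCm38.

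Each comparison was fitted on its 12 libraries with 4 group means in edgeR 4.0.16 (limma 3.58.1, R 4.3.3): TMM scaling, the default filter on low counts, robust quasi-likelihood F test, and Benjamini-Hochberg adjustment over all genes tested with a threshold of 0.05. No correction was made across the 44 contrasts. CPM used the total count. Scripts were tested on simulated data. The labels number the libraries of a group as biological replicates without naming animals, so p-values measure the spread between these samples. Replicates differed by more than counting noise (lowest chi-square per degree of freedom 5.76).

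The 10 members, the lists and the markers were chosen with earlier results of these data known. All members are described in every comparison, in the drug comparisons mostly by their range. From each list at most 2 rising and 2 falling called genes with a mean log2 CPM of at least 1 are named, and likeness used mean log2 CPM with a prior count of 2. Alternatives were RLE factors, total counts, no filter, a fit of all 48 libraries, DESeq2 1.42.0, a replicate block, and leaving out each library.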

Additional observations from a re-analysis of the deposited data

Results flagged for a closer look

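In 7 results the strains' effects differed by the interaction test (edgeR, adjusted p under 0.05), where the value is the DBA/2J log2 effect minus the C57BL/6J one. For normoxia against 24 h controls these were Vim, at -0.62 ± 0.14 (SE; adjusted p = 0.00684), and Itgb6, at 0.66 ± 0.12 (adjusted p = 0.00195). Between normoxia-hyperoxia and normoxia they were Havcr1 at 2.18 ± 0.47 (adjusted p = 0.00685), Vim at 0.76 ± 0.19 (0.0139), Spp1 at 0.71 ± 0.20 (0.0217) and Itgb6 at -0.82 ± 0.14 (0.00178). For normoxia against 6 h controls it was Havcr1, at -2.31 ± 0.45 (adjusted p = 0.0154).

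In a single fit of all 48 libraries 5 of the 7 were no longer called: Itgb6 for normoxia against 24 h controls (0.58, adjusted p = 0.178), Havcr1 (2.29, 0.0973), Spp1 (0.80, 0.0598) and Itgb6 (-0.73, 0.0676) between the oxygen conditions, and Havcr1 for normoxia against 6 h controls (-2.34, 0.169). The Spp1 difference was also lost without C57BL/6J normoxia replicate 2 or DBA/2J normoxia replicate 2 or 3 (adjusted p from 0.0517 to 0.0571). The oxygen comparisons share the normoxia libraries, so the values of a gene in them are not independent.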

How the results depend on the processing

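Of 80 called single-gene results, 64 kept the call under all 18 alternatives, 16 lost it in at least 1 and 0 changed direction. Of 48 uncalled results, 8 gained a call and 22 changed sign.

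Counts of called members that moved with the processing were these. For tunicamycin against control at 24 h the count went from 0 to 1 with the fit of all 48 libraries, DESeq2 and the replicate block, and was 0 to 1 with each library left out. For the strain difference in the effect of time it went from 0 to 1 with total counts, no filter, DESeq2 and the block (0 to 1 with libraries left out). In normoxia-hyperoxia against 24 h controls this difference gave 1 with total counts, 5 with no filter, 1 in the 48-library fit, 2 in DESeq2 and 2 with the block instead of 0 (0 to 1 with libraries left out). In normoxia against 6 h controls it gave 2, 4, 0, 3 and 2 instead of 1 (1 to 2 with libraries left out). The 48-library fit gave 1 instead of 2 for normoxia against 24 h controls and 1 instead of 4 between the oxygen conditions. No filter gave 8 instead of 5 members for normoxia-hyperoxia against 6 h controls, and 2 instead of 0 for its strain difference. For Lcn2 in normoxia-hyperoxia against 6 h controls the difference was 0.55 ± 0.10 without the filter and 0.57 in the main fit. Its call without the filter thus came with a smaller SE and not with a larger difference. Strain differences in 6 h controls went from 5 to 3 with the block (3 to 5 with libraries left out). Without the filter the strain differences went from 5 to 7 in 6 h controls, 4 to 6 in 24 h controls, 6 to 9 under normoxia and 6 to 8 under normoxia-hyperoxia, where the 48-library fit gave 4.

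The labels do not say whether libraries with the same number share a mouse, and in no comparison did all 6 same-numbered pairs correlate over 0.1 (mean r 0.016 to 0.145), so the pairing was not used. It was closest in normoxia against 6 h controls, with 5 of 6 pairs over 0.1 and 6 of 6 libraries correlating best with their own number. With the block, Lcn2 for tunicamycin at 6 h was 0.035 instead of -0.093, and Cd44 for tunicamycin at 24 h (-0.41, adjusted p = 0.0231), Itgb6 for normoxia (-0.20) and Vcam1 for normoxia-hyperoxia (0.40) against 6 h controls were called, while the strain differences of Cd44 (0.91, adjusted p = 0.0684) and Spp1 (-0.53, adjusted p = 0.0509) in 6 h controls were not.

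Signs that changed with 1 library left out all belonged to uncalled results. For tunicamycin at 6 h the ranges were -0.39 to 0.57 (Lcn2), -0.27 to 0.045 (Cd44), -0.13 to 0.052 (Clu), -0.041 to 0.090 (Spp1), -0.073 to 0.078 (Prom1) and -0.096 to 0.17 (Itgb6). At 24 h they were -0.20 to 0.047 (Vcam1), -0.10 to 0.059 (Vim) and -0.11 to 0.027 (Clu). For cyclosporin A at 6 h they were -0.0056 to 0.49 (Havcr1), -0.19 to 0.89 (Lcn2), -0.30 to 0.024 (Vcam1), -0.21 to 0.098 (Sox9), -0.20 to 0.13 (Cd44), -0.090 to 0.023 (Clu), -0.0055 to 0.12 (Spp1) and -0.050 to 0.14 (Prom1). At 24 h they were -0.25 to 0.060 (Vcam1), -0.036 to 0.092 (Vim), -0.052 to 0.088 (Clu) and -0.11 to 0.013 (Itgb6), and for normoxia-hyperoxia against 6 h controls -0.0079 to 0.21 (Itgb6). The cause of these changes was not tested. The lowest count of a member was 10, for Lcn2 in a DBA/2J normoxia library.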
